A study of Homo sapiens with 82 samples.

Results

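Occupancy of RNA polymerase II (RNAP2) was compared between HT29 cells treated with GW3965 for 24 h and cells treated with DMSO, using peaks called in 2 ChIP-seq libraries of each condition. Peaks of the 4 libraries that overlapped by at least 1 bp were joined, which gave 42026 sites on chromosomes 1 to 22 and X. A site was called gained when both GW3965 libraries and neither DMSO library had a peak there, lost in the reverse case, and kept when all 4 libraries had a peak. There were 349 gained, 3409 lost and 17308 kept sites, and the other sites had a peak in 1 library or in a mixture of libraries from both conditions. The 4 libraries are part of a series of 82 samples of HT29, a human colorectal cancer cell line, in which RNA and the binding of nuclear receptors were measured after agonists of the liver X receptors (LXRA and LXRB) or of PPARG.

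GW3965, a synthetic LXR agonist, was given at 10 μM, and the control cells received DMSO. How long the DMSO cells of ChIP-seq were cultured is not stated in the labels. RNAP2 libraries of GW3965 at 48 h and of rosiglitazone, a PPARG agonist also given at 10 μM, at 24 and 48 h served for comparison. So did H3K27ac in DMSO and at both times of GW3965, and LXRA-FLAG and LXRB after 2 and 48 h of GW3965. Each of these groups had 2 libraries. LXRA was detected through its Flag tag, so its sites are those of a tagged protein. RNA at 24 h was measured with DMSO, GW3965, rosiglitazone and T0901317, another LXR agonist at 10 μM, in 4 libraries each.

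RNAP2 transcribes all protein-coding genes. It gathers at promoters before elongation, spreads along the body of transcribed genes, and is also found at active enhancers. LXRs bind DNA as partners of the retinoid X receptor and, when a ligand is bound, raise transcription of genes of cholesterol efflux and fatty acid synthesis. H3K27ac is a histone mark of active promoters and enhancers.

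The DMSO libraries held 30638 and 35010 RNAP2 peaks and the GW3965 libraries 27260 and 27248, with median widths of 1228, 1046, 1224 and 1035 bp. Each peak carries a score, which is minus 10 times the log10 of the p given by the peak caller, and no listed peak scored below 100. A site without a peak was therefore below this limit in that library and was not shown to lack RNAP2. A score of exactly 3100 recurred at strong sites and is called the score limit here, although some peaks scored up to 3233.06. Scores rise with sequencing depth, and the depth of these libraries is unknown here. All RNAP2 and H3K27ac libraries of 1 condition were set against the same input library, so treatment and input cannot be told apart. In RNA of the same cell line at 24 h, all 9 colon epithelium markers were detected, with EPCAM at 338 ± 11.8 CPM (counts scaled to library size; SD, n = 4) in DMSO, while PTPRC and ALB, markers of leukocytes and hepatocytes, were below the filter for low counts and COL1A1, a fibroblast collagen, was at 4.39 ± 0.94 CPM.

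Gained sites made up 0.83% and lost sites 8.11% of all sites. A peak in only 1 of the 4 libraries was found at 5192 sites for GW3965 and at 5684 sites for DMSO, so sites private to 1 GW3965 library outnumbered gained sites. The 5684 sites private to 1 DMSO library likewise outnumbered the 3409 lost sites, although each DMSO library alone had fewer private sites (2414 and 3270). The excess of lost over gained sites also moved with the number of peaks per library. When the 27248 peaks with the highest scores were taken from every library, 810 sites were gained and 1657 were lost. No p-value was attached to these counts, since 2 against 2 libraries cannot reach an exact permutation p below 0.333.

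**Figure D1:**
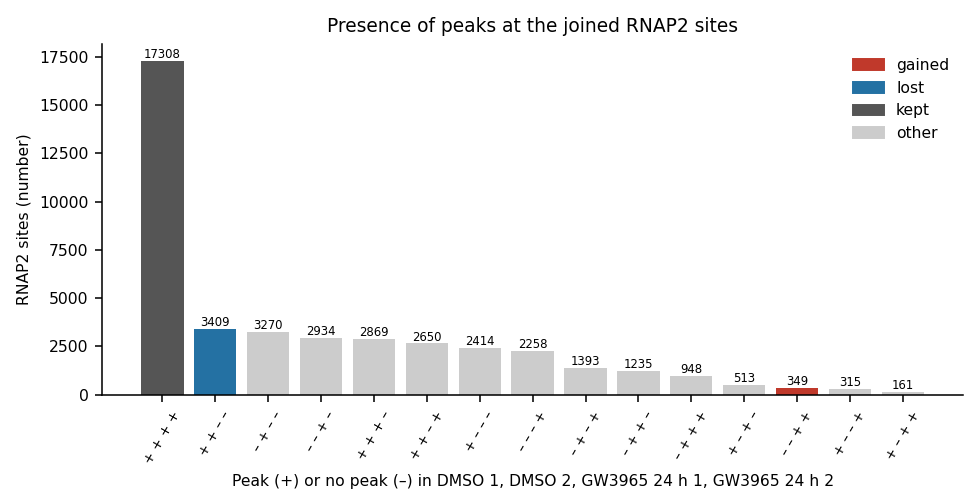
Number of joined RNAP2 sites (y axis) for each combination of peaks in the 4 libraries (x axis, plus for a peak and minus for none), with gained, lost and kept sites coloured. The 17308 kept sites form the tallest bar, and the 349 gained sites lie below all 4 bars of sites found in a single library.

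Most gained sites were narrow and weak. Their median span was 944 bp, against 984 bp for lost and 1680.5 bp for kept sites, and in 282 of 349 the lower of both GW3965 scores was under 150. Only 19 gained sites had a lower score of at least 200. Among lost sites, 404 of 3409 had a lower DMSO score of at least 200.

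The strongest gained site was chr17:80036653-80052538 (hg19). It was covered by RNAP2 peaks over 15817 and 15826 bp in the GW3965 libraries of 24 h and over 15786 and 15806 bp at 48 h, with scores at the limit of 3100 in all 4. The rosiglitazone libraries covered 1412 and 0 bp at 24 h and 6423 and 0 bp at 48 h. Coverage in both GW3965 libraries of 48 h exceeded that in every rosiglitazone library. No peak of H3K27ac in DMSO or GW3965 at 24 h, or of LXRA or LXRB at 2 h, lay in the site, but 1 of 2 LXRB libraries of 48 h had 7 peaks there over 8085 bp. The neighbouring span chr17:80033472-80036554 had peaks in all 4 libraries of the comparison and is among the sites with a changed score.

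A second stretch lay on chromosome 10. The gained sites chr10:102113237-102118233 and chr10:102118275-102120750 had scores of 2845.55 and 3100 and of 1439.76 and 2775.23 in the GW3965 libraries. They were flanked by the kept sites chr10:102105178-102113219 and chr10:102121164-102127190. Over the whole stretch of 22.01 kb, RNAP2 peaks covered 14.95% and 18.86% in DMSO and 97.13% and 92.99% with GW3965 at 24 h. At 48 h of GW3965 they covered 96.74% and 94.09%, and in the 4 rosiglitazone libraries between 26.18% and 37.86%. H3K27ac covered 19.1% and 30.62% in DMSO and 60.11% and 53.6% with GW3965 at 24 h. The stretch was chosen for its RNAP2 peaks at 24 h, whereas H3K27ac and the later RNAP2 libraries had no part in the choice. H3K27ac with GW3965 at 24 h lay above both DMSO libraries, but its peaks were called against the same input as RNAP2 of that condition. LXRA and LXRB peaks of 2 h were present in both replicates at chr10:102121164-102127190, with LXRB scores of 2434.3 and 1850.77.

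The third strongest gained site, chr21:43718272-43725603, was covered over 6353 and 7296 bp with GW3965 at 24 h and over 7288 and 6994 bp at 48 h. In the rosiglitazone libraries 2002 and 0 bp were covered at 24 h and 2783 and 0 bp at 48 h. It had no LXR peak at 2 h, but LXRB scored 163.84 and 359.63 there at 48 h. The fifth, chr9:107688426-107690999, had LXRA and LXRB peaks at the score limit in all 4 LXR libraries of 2 h. RNAP2 scored 871.31 and 1852.52 there at 24 h and 3156.74 and 2581.24 at 48 h. H3K27ac scored 384.24 in 1 DMSO library, was without a peak in the other, and scored 2049.42 and 784.06 with GW3965 at 24 h.

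Ranked in the same way among gained sites with an LXR site of 2 h, the next were chr21:43639166-43641175, chr17:27965960-27967134, chr21:43652102-43655723 and chr9:107752797-107754824. RNAP2 scored 375.7 and 738.05 at chr21:43639166-43641175 and 365.16 and 639.11 at chr21:43652102-43655723. Both sites had LXRA and LXRB in all replicates and H3K27ac already in both DMSO libraries. At chr17:27965960-27967134, RNAP2 scored 406.16 and 365.64 and LXRA was at the score limit in both libraries of 2 h. LXRB had no peak there at 2 h but scored 435.23 and 471.37 at 48 h. At chr9:107752797-107754824, RNAP2 scored 272.57 and 430.86 and LXRB 2829.47 and 2793.42. None of the rosiglitazone libraries had an RNAP2 peak in this last site, and both GW3965 libraries of 48 h did.

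The strongest lost sites were chr21:42816199-42822627, chr4:89363517-89367589, chr21:42807696-42811986, chr17:78259676-78263029 and chr17:6678402-6680475. At chr21:42816199-42822627 the DMSO scores were 1388.76 and 1069.71. There, peaks of lower score returned at 48 h of GW3965 (483.73 and 243.7), and rosiglitazone gave 336.92 and 110.05 at 24 h but no peak at 48 h. At chr4:89363517-89367589, with DMSO scores of 1032.8 and 760.21, 1 rosiglitazone library of 24 h scored 425.19 and the other 5 libraries of the later time or the other drug had no peak. At chr17:6678402-6680475, with 614.29 and 691.35 in DMSO, none of these 6 libraries had a peak. High DMSO scores and the lack of a peak with GW3965 at 24 h chose these sites, so their place above the other libraries is a description only.

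Lost sites with the opposite behaviour under rosiglitazone were also found. Of 3409 lost sites, 419 (12.3%, Wilson 95% interval 11.2 to 13.4) had a peak in all 4 rosiglitazone libraries and in neither GW3965 library of 48 h, against 4.29% of all sites. The strongest, named after its values had been seen, was chr12:79321968-79322992. It scored 407.12 and 427.91 in DMSO, 382.96 and 377.4 after 24 h of rosiglitazone and 204.36 and 345.46 after 48 h, and had no peak in any of the 4 GW3965 libraries. A further 461 lost sites (13.5%) had no peak in any of the 6 other RNAP2 libraries, against 11.6% of all sites. Intervals of shares cover counting error only.

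Runs of at least 3 gained or at least 3 lost sites were counted because polymerase along a gene gives several peaks. Gaps between the sites of a run were at most 50 kb, with no site of the opposite class between them. Kept and other sites could lie inside a run, and the coverage of a run includes their peaks. There were 5 runs of gained sites, holding 22 sites, and 75 runs of lost sites, holding 269. The longest gained run had 8 sites over chr19:11213147-11267116. Peaks covered 6575 and 7295 bp of it in DMSO and 17217 and 29598 bp with GW3965 at 24 h. Coverage was 19176 and 10994 bp at 48 h of GW3965, but 1 rosiglitazone library of 24 h reached 23172 bp, within the range of GW3965.

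The run chr9:107688426-107770069 had 5 gained sites and was covered over 1029 and 795 bp in DMSO and over 8840 and 7506 bp with GW3965 at 24 h. GW3965 at 48 h gave 7805 and 7059 bp, and the 4 rosiglitazone libraries gave between 524 and 2428 bp, with no overlap between the drugs. LXRA at 2 h covered 11559 and 10417 bp of it and LXRB 7008 and 7358 bp. The run chr7:155087648-155105116 had no RNAP2 peak in DMSO, 4545 and 4584 bp with GW3965 at 24 h and 6585 and 6391 bp at 48 h. The other gained runs were chr17:80032014-80052538, which holds the strongest gained site, and chr2:223767229-223817445. In the latter the GW3965 libraries of 24 h differed widely, with 6808 and 34507 bp.

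The longest lost run had 12 sites over chr21:42746137-42822627. Its coverage was 48001 and 28830 bp in DMSO and 3313 and 3039 bp with GW3965 at 24 h. It was 11085 and 6340 bp at 48 h of GW3965, 22451 and 2957 bp after 24 h of rosiglitazone and 3643 and 2253 bp after 48 h. Over the whole run chr12:113354092-113452468, which holds 9 lost sites, peaks covered 46532 and 33565 bp in DMSO. GW3965 gave 11142 and 9817 bp at 24 h and 14025 and 10391 bp at 48 h. Rosiglitazone at 24 h gave 33569 and 20187 bp, of which the first lay within the range of DMSO, and at 48 h it gave 14913 and 10588 bp, close to GW3965 at 48 h. The run chr3:122405670-122443532, with 6 lost sites, was covered over 21801 and 8483 bp in DMSO and had no peak with GW3965 at 24 h. Rosiglitazone gave 4158 and 0 bp there at 24 h and no peak at 48 h.

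The 6 lost sites of chr1:12535112-12671304 behaved differently. Their run was covered over 32918 and 38503 bp in DMSO, 11770 and 9239 bp with GW3965 at 24 h and 12598 and 11972 bp at 48 h. Rosiglitazone gave 28303 and 44416 bp at 24 h and 41014 and 34822 bp at 48 h. The difference at 24 h was fixed by the choice of the run, and in the libraries that had no part in it all 4 of rosiglitazone exceeded both of GW3965 at 48 h. LXRA at 2 h covered 12572 and 10371 bp of the run and LXRB 6909 and 4525 bp, and H3K27ac in DMSO and with GW3965 at 24 h overlapped in coverage. Runs of 6 lost sites were also found at chr19:55948490-56062009, with 18884 and 19350 bp in DMSO and 6931 and 9190 bp with GW3965, and at chr7:138737615-138803627, with 20357 and 13448 bp against 2809 and 3382 bp.

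**Figure D2:**
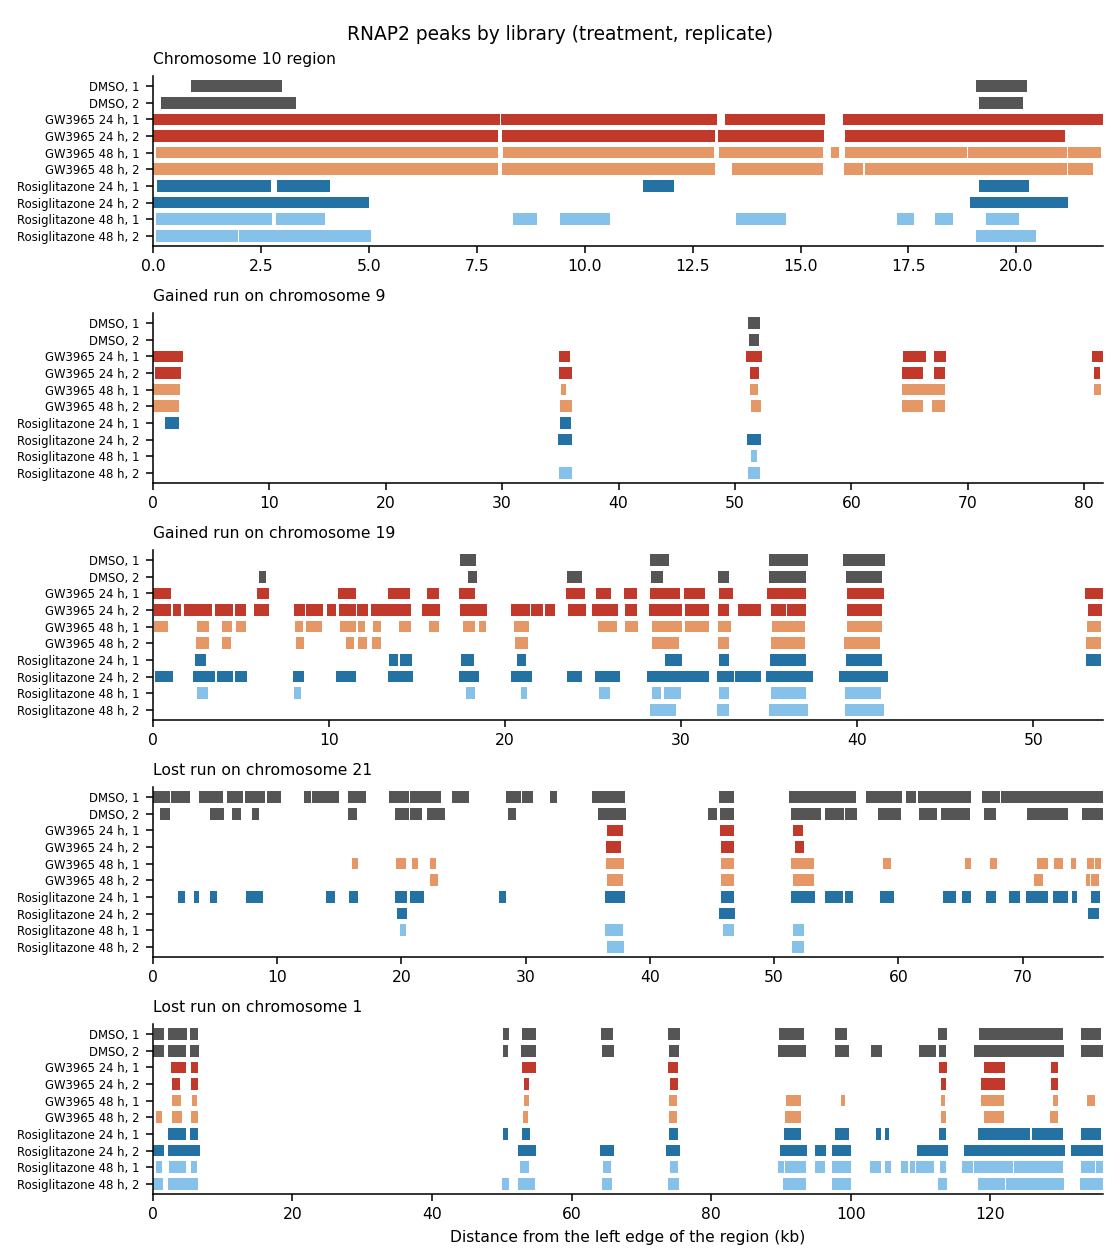
RNAP2 peaks (bars) in 10 libraries, 2 for each treatment, along 5 regions, with the distance from the left edge of each region in kb on the x axis. Peaks fill the chromosome 10 region in the 4 GW3965 libraries, and the lost run on chromosome 1 is covered over 28303 to 44416 bp in the rosiglitazone libraries but 9239 to 12598 bp in the GW3965 libraries.

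Changes in width and score were tested at the 17308 kept sites with limma on log2 values centred on the median of each library. No site was widened (0.0% of those tested) or narrowed (0.0%) when limma's p-values were adjusted by Benjamini-Hochberg at 0.05, and the lowest adjusted p was 0.137. At an unadjusted p under 0.05, 243 sites were wider and 462 narrower. By the simpler criterion that the groups did not overlap and differed at least 1.5-fold, 181 sites (1.05%) were wider and 312 (1.8%) narrower. The lowest p among narrower sites was that of chr21:42797321-42802778, which lies in the longest lost run and was covered over 5391 and 4891 bp in DMSO and 823 and 710 bp with GW3965. Among wider sites it was that of chr10:102121164-102127190, covered over 1181 and 1017 bp in DMSO and 6027 and 5091 bp with GW3965, a change of 2.46 ± 0.15 (log2, SE, n = 2 against 2) with an adjusted p of 0.147 in limma.

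Scores rose at 6 kept sites (0.0347% of those tested) and fell at 2 (0.0116%) by limma with an adjusted p under 0.05, with 640 higher and 518 lower at an unadjusted p under 0.05. Across kept sites, the log2 scores of both GW3965 libraries correlated less with each other (r = 0.683) than with either DMSO library (r from 0.697 to 0.836), and for width r was 0.887 against 0.894 to 0.933. These correlations are across 17308 sites, which are not independent replicates. The largest rise was at chr10:102105178-102113219, where scores were 219.66 and 647.61 in DMSO and at the limit of 3100 in both GW3965 libraries. Its change was 3.47 ± 0.44 (log2, SE, n = 2 against 2), with an adjusted p of 0.00344 in limma. At chr17:17710524-17732219, scores of 311.09 and 742.7 in DMSO rose to the limit in both GW3965 libraries, by 3.12 ± 0.42, and both LXRs had peaks there in all libraries of 2 h. The other sites with a higher score were chr17:80033472-80036554, chr4:11395038-11400275, chr17:35437962-35444479 and chr10:102121164-102127190, with log2 changes between 2.65 and 2.92. Where GW3965 scores were at the limit, the size of the change was capped. Both GW3965 libraries were at the limit at chr10:102105178-102113219, chr17:17710524-17732219, chr17:80033472-80036554 and chr10:102121164-102127190. Equal scores there left no spread between these libraries before centring, so the SE and p of limma depend on the limit as well.

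These 6 sites kept high scores at 48 h of GW3965, from 1411.98 upward, and 4 of them were at the limit in both libraries of 48 h. Of the rosiglitazone scores at these sites, the highest was 1864.83. H3K27ac had no peak in DMSO or with GW3965 at 24 h at chr17:80033472-80036554, chr4:11395038-11400275 and chr17:35437962-35444479. The last 2 of these also lacked LXRA and LXRB peaks at 2 h.

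The sites with a lower score were chr3:122445714-122452087 and chr21:42823146-42833780, which lie next to lost runs. At chr3:122445714-122452087, DMSO scores of 1374.36 and 1925.39 fell to 118.4 and 122.56, a log2 change of -3.32 ± 0.45. Rosiglitazone at 24 h gave 1409.57 and 1186.88 there, close to DMSO, and at 48 h 197.4 and no peak. After 48 h of GW3965 the scores were 545.74 and 457.02, between those of GW3965 at 24 h and of DMSO. At chr21:42823146-42833780, DMSO scores of 3100 and 2378.07 fell to 217.93 and 447.73, a log2 change of -2.69 ± 0.45, and the scores were 1423.58 and 947.83 at 48 h. No LXR peak of 2 h lay in either site. Without centring no site was called, and the median log2 change of all sites moved from 0.04 to -0.395. The changes at the 8 sites kept their direction and much of their size, with 3.04 and 2.69 at the 2 sites of the largest rise and -3.12 and -3.75 at the 2 lower ones, at an adjusted p of 0.52 in limma. Leaving out the first DMSO library also removed every call.

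**Figure D3:**
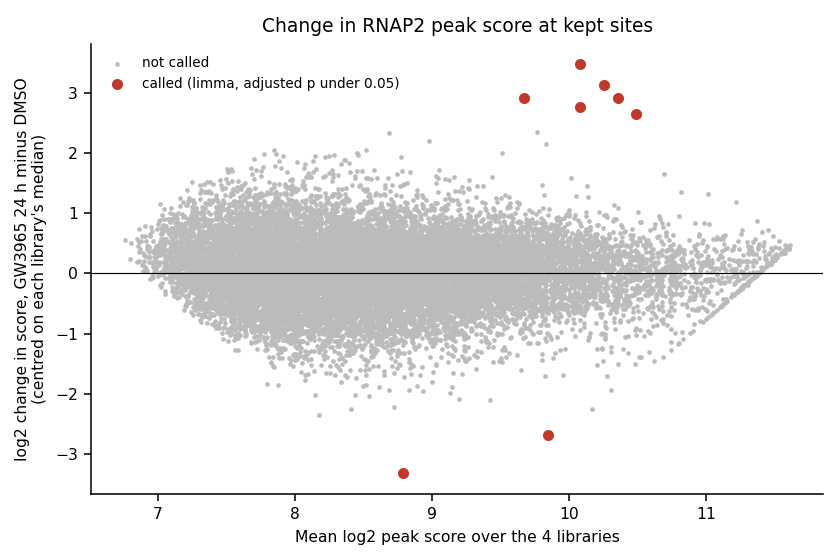
Change in RNAP2 peak score between GW3965 at 24 h and DMSO (y axis, log2, centred on each library's median) against the mean log2 score (x axis) for 17308 kept sites, 1 point per site. The 6 sites with a higher and 2 with a lower score lie outside the cloud, and the slanted edge at the right comes where scores reach the limit of 3100.

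RNAP2 at the gained sites was next looked for in libraries that had not defined them. Peaks were found at 58.2% and 59.0% of gained sites in the GW3965 libraries of 48 h, whereas rosiglitazone libraries had peaks at 39.5% and 51.0% of them (24 h) and 35.2% and 38.1% (48 h). For lost sites the order was the reverse, with 29.9% and 21.6% with GW3965 at 48 h, 64.5% and 52.6% after 24 h of rosiglitazone, and 49.0% and 49.6% after 48 h. Of all sites, 61.3% and 57.6% had a peak with GW3965 at 48 h and between 62.4% and 68.5% with rosiglitazone. The GW3965 and the rosiglitazone libraries did not overlap in either class. Nor did they over all sites, with means of 59.5% (GW3965) and 65.2% (rosiglitazone). At gained sites the GW3965 shares were close to those of all sites, and the rosiglitazone shares were lower. With 2 against 4 libraries the exact permutation p cannot go below 0.133. Gained, lost and all sites each reached it (two-sided, adjusted p = 0.667 over 20 comparisons). Presence at 48 h of GW3965 was more frequent at sites of higher score in both classes. Both libraries of 48 h had a peak at 120 of 282 gained sites with a lower score under 150, 35 of 48 between 150 and 200, and 16 of 19 at 200 or above. For lost sites, ranked by their DMSO score, the same shares were 13.1%, 22.3% and 30.7%. Both rosiglitazone libraries of 24 h had a peak at 35.1%, 53.5% and 58.2% of these lost sites.

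H3K27ac was present at fewer gained sites than at sites in general. In the DMSO libraries 16.05% and 19.2% of gained sites had an H3K27ac peak, against 46.3% and 53.5% of all sites. After 24 h of GW3965, 28.1% and 43.6% had one, and after 48 h, 38.1% and 40.4%, above both DMSO libraries in each case. For gained sites the exact permutation test gave its smallest possible p of 0.333 at both times (two-sided, adjusted p = 0.667). The order was the same at the 5192 sites private to 1 GW3965 library, so it was not particular to gained sites. There the shares were 13.0% and 16.5% in DMSO, 16.8% and 34.0% at 24 h and 28.6% and 29.8% at 48 h, and were not tested. At lost sites, H3K27ac peaks were found at 35.0% and 50.1% in DMSO and 45.8% and 29.4% with GW3965 at 24 h, so the libraries of both conditions overlapped. Over all sites the shares with GW3965 at 24 h were 52.8% and 51.8%.

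LXRA peaks of 2 h were found in both replicates at 35.5% of gained sites (Wilson 95% interval 30.7 to 40.7), 23.8% of lost sites (22.4 to 25.2) and 51.0% of kept sites. The share over all sites was 35.6%, so gained sites did not stand above that background. At the 5192 sites private to 1 GW3965 library it was 20.6% (19.6 to 21.8), below the share of gained sites. Median spans were 944 bp for gained, 823 bp for these private and 1161 bp for all sites. LXRB peaks of 2 h lay at 6.59% of gained (4.43 to 9.69), 1.53% of lost (1.17 to 2.0) and 8.76% of all sites. They lay at 19.2% of kept sites and at 0.616% (0.437 to 0.869) of the sites private to 1 GW3965 library. Differences between these shares were not tested. At 48 h, LXRA was found in both replicates at 24.4% of gained and 31.5% of lost sites and LXRB at 11.2% and 11.1%, against 33.6% and 20.2% of all sites. Among the 19 gained sites with a lower score of at least 200, LXRA of 2 h was present at 9 (47.4%, 27.3 to 68.3). LXRB of 2 h was present at 5 (26.3%, 11.8 to 48.8). Both intervals include the share of kept sites, and several of the 19 sites lie close together on chromosome 9.

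**Figure D4:**
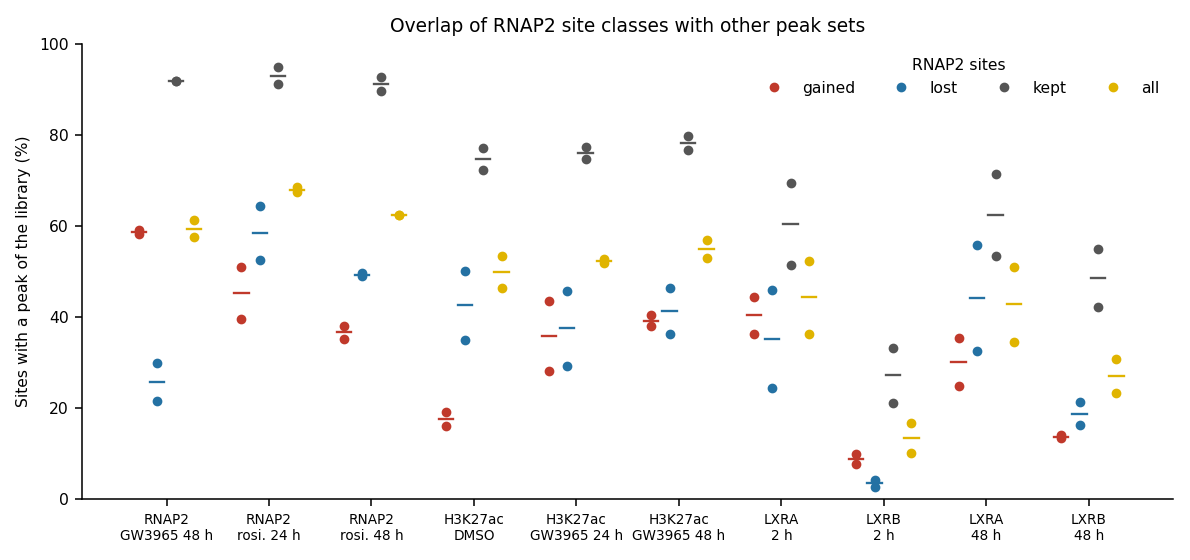
Percentage of gained, lost, kept and all RNAP2 sites (colours) with a peak in other libraries (x axis; rosi., rosiglitazone), with 1 point per library and a line at the mean of 2. Gained sites lie above lost sites in the RNAP2 libraries of GW3965 at 48 h and below them in all 4 rosiglitazone libraries, and H3K27ac in DMSO is found at 16.05% and 19.2% of gained sites.

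RNA of the same treatment at 24 h was measured in 4 libraries per group, with total counts from 30834003 to 51332656 in DMSO and GW3965. These values are set beside the sites without joining a gene to a site, because no gene coordinates of the build of the peaks were used. Of 21781 genes tested with edgeR, 406 (1.86%) were higher and 189 (0.868%) lower with GW3965 at an adjusted p under 0.01. Among 21 known LXR targets, 17 passed the filter for low counts, of which 12 were higher and none lower, with a median log2 change of 1.10 against -0.006 over all genes tested.

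The cholesterol exporters ABCA1 and ABCG1 rose most within the list. ABCA1 measured 4.92, 4.45, 4.80 and 4.33 CPM in DMSO and 105.9, 118.4, 123.4 and 106.1 CPM with GW3965, a log2 change of 4.61 ± 0.09 (SE). ABCG1 rose from 6.93 ± 0.64 to 177.1 ± 13.6 CPM (SD, n = 4), by 4.67 ± 0.08. Genes of fatty acid synthesis rose less. SCD, a fatty acid desaturase, changed by 2.01 ± 0.05, SREBF1, a transcription factor of lipid synthesis, by 1.99 ± 0.13, FASN, the fatty acid synthase, by 1.56 ± 0.17 and ACACA, an acetyl-CoA carboxylase, by 0.87 ± 0.05. LPCAT3, MYLIP, PLTP, NR1H3 (which encodes LXRA) and SMPDL3A also rose, with log2 changes between 0.92 and 1.56. APOE, APOC1 and PNPLA3 were among the targets that were tested and did not pass.

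Of 9 genes of cholesterol synthesis and uptake, 3 rose and none fell, with INSIG1 (0.57 ± 0.05) and FDFT1 (0.40 ± 0.05) among those that rose. ATF3 (1.10 ± 0.12) was the one of 8 AP1 subunits to rise, and HBEGF (1.12 ± 0.11) and TGFA (0.29 ± 0.06) rose among 10 EGFR ligands and feedback genes. TGFA lost its call in 6 of 12 alternatives, among them library size scaling (adjusted p = 0.0453 in edgeR), and SMPDL3A in 4 of 12, each with the same direction. None of 5 reference genes passed the test. KRT20, a keratin of differentiated colon epithelium, rose by 0.83 ± 0.05, and the other 8 colon markers did not pass.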

How the data were processed

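Per the labels and file headers, the authors called ChIP-seq peaks with MACS in each library against 1 input library, after alignment with Bowtie to hg19, and the deposited score is minus 10 times the log10 of the p. For RNA, TopHat and Cufflinks are named in the submitters' processing notes, and the deposited values are whole-number counts per gene. No versions or strand setting were found in these sources.

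Coordinates are printed 1-based. Peaks were joined with numpy 2.4.6 and pandas 2.3.3 and intervals computed with scipy 1.17.1 (Python 3.11.15), and 1 peak of the second GW3965 library outside chromosomes 1 to 22 and X was left out. The covered length and the highest score of a site were fitted with limma 3.58.1 (trend) in R 4.3.3. On simulated data drawn with the moderated variances of the fit, limma recovered 95.5% of 200 sites with a log2 change of 2 in width and 77.5% in score among 17308 sites, with 15 and 11 false calls. This setting favours limma, which assumes such variances, more than a draw from the spread of each site alone. Simulated scores also had no limit, so these shares do not measure the power in the real data. RNA was fitted with edgeR 4.0.16 (quasi-likelihood, TMM, its filter for low counts, all 16 libraries of 24 h), and DESeq2 1.42.0 was an alternative. The T0901317 and rosiglitazone libraries among these 16 entered the filter and the estimate of the spread. On simulated counts of 21781 genes, both recovered 100% of 200 genes with a 2-fold change, with 1 false call each. p-values are Benjamini-Hochberg adjusted, and plots were drawn with matplotlib 3.10.9.

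Sites were named by rule: the 5 gained and 5 lost with the highest lower score of their 2 libraries, the 5 such gained sites with an LXR site of 2 h, called sites, and the 5 longest runs of each class (6 lost runs, because of ties). Sites on chromosome 8 were not named. Some list genes are counted but their values are not reported here. Members and gene lists were chosen with earlier results of these data known. RNA at named sites had been planned only if gene coordinates of hg19 were given. The gene tables used here are of another build, so no gene was assigned to a site and no sequence is printed. Nothing in the labels says that replicates came from separate cultures, so p-values measure the spread between these libraries, which may be technical. Depth at sites and H3K27ac after rosiglitazone were not analysed here.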

Additional observations from a re-analysis of the deposited data

How the results depend on the processing

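Counts of sites depended on how peaks were chosen and joined, and the cause was not tested except where the setting itself changes the number of libraries or peaks. Gained sites numbered 143 with peaks scoring at least 200, 810 with equal numbers of peaks, 1464 with sites built from both replicates per condition and 1554 with an overlap of at least 50% of the site. Lost sites numbered 1657 with equal numbers, 8983 with sites per condition and 9240 with the 50% overlap. Leaving out 1 library gave 515 to 3297 gained (3297 without the second GW3965 library, 2646 without the first, 1307 without the second DMSO library, 515 without the first) and 5875 to 6865 lost sites, since 1 library then decides a class. Runs of gained sites numbered 1 with scores of at least 200 and 2 with peaks joined within 500 bp. Runs of lost sites numbered 45 with scores of at least 200 and 20 with equal numbers. The alternatives for runs, for RNA and for score sites by peak choice were chosen after seeing the data.

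Without centring, 1 site was widened and 3 narrowed, and without overlap and at 1.5-fold 181 were wider and 312 narrower. Higher and lower scores were called at 0 and 0 sites without centring, and the lower calls numbered 1 with scores of at least 200. Leaving out 1 library gave 0 to 509 higher and 0 to 690 lower scores, with a lone library assumed to vary like the other group. Without the first DMSO library no score was called, without the second 4 were higher and 0 lower, without the first GW3965 library 484 and 189, and without the second 509 and 690. With the replicate block, 11 scores were higher and 3 lower, and 0 sites were widened and 0 narrowed. Same-numbered libraries deviated together with r = 0.241 for width and 0.258 for score, over 2 pairs only, so the numbers were not taken as pairs. In RNA these correlations ran from -0.103 to 0.065, and the replicate block gave 368 higher and 178 lower genes. DESeq2 called 551 higher and 313 lower genes, library size scaling 334 and 269, and leaving out 1 library gave 328 to 551 and 137 to 228. Of 228 values of called list genes under the alternatives, 218 held their call and 10, of SMPDL3A and TGFA, lost it with the same direction. Of 54 values of called score sites, 36 held and 18 were lost with the same direction.

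With a peak in either replicate instead of both, the shares of gained and of lost sites were 21.8% and 51.5% for H3K27ac in DMSO, 47.9% and 50.2% for H3K27ac with GW3965 at 24 h, 45.3% and 46.7% for LXRA and 11.2% and 5.49% for LXRB at 2 h, and 36.1% and 56.8% for LXRA and 16.3% and 26.4% for LXRB at 48 h. For RNAP2 they were 68.2% and 34.3% with GW3965 at 48 h, 63.0% and 75.2% after 24 h of rosiglitazone, and 54.7% and 66.1% after 48 h. With peaks scoring at least 200 in both replicates, they were 6.88% and 18.98% for H3K27ac in DMSO, 14.6% and 14.4% with GW3965 at 24 h, 22.9% and 8.16% for LXRA and 2.87% and 0.411% for LXRB at 2 h, and 18.6% and 11.8% for LXRA and 6.59% and 1.94% for LXRB at 48 h. For RNAP2 they were 22.9%, 4.93% and 36.4% with GW3965 at 48 h. After rosiglitazone they were 8.02%, 14.0% and 37.3% at 24 h and 6.59%, 7.51% and 31.4% at 48 h.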

Other observations

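JunD, an AP1 subunit measured in DMSO only, was found in both replicates at 4.01% of gained sites (Wilson 95% interval 2.4 to 6.62), 14.8% of lost sites (13.7 to 16.1) and 19.4% of all RNAP2 sites. Among kept sites, JunD lay at 41.7% of the 312 narrower sites (36.3 to 47.2), 8.84% of the 181 wider sites (5.51 to 13.9) and 33.7% of all kept sites. LXRA of 2 h lay in both replicates at 51.9% of the narrower and 27.6% of the wider sites, against 51.0% of kept sites. These shares are values of 2 JunD libraries and 2 LXRA libraries and were not tested. Chromosome 21 held the highest share of both classes among the chromosomes, with 8 of 466 sites gained (1.72%) and 57 lost (12.2%). Several of these 8 gained sites lie within chr21:43639166-43725603, and 12 of the 57 lost sites form the longest lost run. Differences between chromosomes were not tested.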
